A study of Mus musculus with 8 samples.

Results

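The 10 immediate early genes examined here are the 4 zinc finger transcription factor genes Egr1, Egr2, Egr3 and Egr4, the AP-1 subunit genes Fos, Fosb, Fosl2 and Junb, the nuclear receptor gene Nr4a1 and the synaptic effector gene Arc. They were taken by gene symbol from the 32531 symbols of each count table. All 10 passed the filter on low counts and are among the 12467 genes tested. Ribosome-bound RNA came from accumbens nucleus (4 libraries) and from dorsal striatum (4 libraries) of mice aged over 20 months that carry Drd1-EGFP/Rpl10a (CP73). Both groups carry the same transgene, in which the Drd1 promoter, active in cells with the dopamine D1 receptor, drives ribosomal protein L10a joined to EGFP, and polysomes were captured with antibodies to EGFP. The mice had no treatment per the labels, which do not say whether a library is 1 animal or a pool, or whether equal library numbers in the 2 regions mark the same animals. P-values therefore measure the spread between these libraries, which may be technical. No young animals and no unpurified input were analysed here.

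Immediate early genes are switched on by signals that act on proteins already in the cell, so their transcripts appear without new protein synthesis and are short-lived. In spiny projection neurons of the striatum, dopamine at D1 receptors raises cyclic AMP, glutamate raises calcium, and both reach the transcription factors CREB and SRF through protein kinase A, the ERK cascade and calmodulin-dependent kinases. The EGR and AP-1 proteins made from these transcripts then bind DNA and change later gene expression, while Arc acts at synapses. These genes are widely used as marks of recent neuronal activity in striatum, and Egr1 and Egr3 are also known to be expressed there at rest.

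The starts of these genes are shown as a description. Several of the 10 varied together across libraries, as described further on, and the part of the start sequences in that was not tested. RefSeq windows (GRCm38.p6, 250 bases before to 50 after an annotated start) were matched for 7 of the 10 genes. Egr1, Egr3 and Arc had no window in the table used. The letters TGACG, the core letters of the cyclic AMP response element bound by CREB, occurred on either strand in a window of 6 of the 7 genes (Egr2, Egr4, Fos, Fosb, Junb and Nr4a1). The 7 genes have 11 windows, of which 5 overlapping or nearby ones belong to Egr2, and 8 of the 11 held these letters, against 20.8% of all 32851 windows of the same length. At least 2 such matches stood in 6 of the 11 windows, against 5.01% of all windows. These belong to 4 genes, for each of which 1 window is printed here. The whole element TGACGTCA (1.79% of all windows) and the AP-1 letters TGANTCA (7.81%) were found in 0 of the 7 genes. A CArG box, the SRF site, was found in 4 of the 11 windows, all of Egr2, against 1.63% of all windows. The EGR letters GCGNGGGCG were found in 3 of the 11, of Fosb, Fosl2 and Nr4a1, against 5.55% of all windows. Windows of these genes are rich in G and C, from 58.7% in Fos to 72.3% in Nr4a1 among those printed, and the windows of all genes were not matched for this. Capitals mark TGACG on either strand (printed as CGTCA where it lies on the other strand), and also the CArG box in Egr2 and the EGR letters in Nr4a1. A match describes these letters and is not evidence of binding.
Egr2 (chr10:67537619-67537918, plus strand; 1 of 5 windows of this gene): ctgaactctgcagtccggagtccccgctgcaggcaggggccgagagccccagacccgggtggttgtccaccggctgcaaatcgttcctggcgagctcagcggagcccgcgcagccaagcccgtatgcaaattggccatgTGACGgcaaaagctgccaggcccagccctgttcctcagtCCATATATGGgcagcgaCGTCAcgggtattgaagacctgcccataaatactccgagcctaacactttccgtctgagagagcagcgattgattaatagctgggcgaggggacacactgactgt
Egr4 (chr6:85513540-85513839, minus strand): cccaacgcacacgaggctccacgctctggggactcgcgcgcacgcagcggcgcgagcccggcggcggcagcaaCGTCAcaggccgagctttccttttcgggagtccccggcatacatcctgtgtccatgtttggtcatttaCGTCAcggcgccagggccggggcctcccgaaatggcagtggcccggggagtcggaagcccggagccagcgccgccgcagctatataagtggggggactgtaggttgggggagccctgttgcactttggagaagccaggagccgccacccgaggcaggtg
Fos (chr12:85473640-85473939, plus strand): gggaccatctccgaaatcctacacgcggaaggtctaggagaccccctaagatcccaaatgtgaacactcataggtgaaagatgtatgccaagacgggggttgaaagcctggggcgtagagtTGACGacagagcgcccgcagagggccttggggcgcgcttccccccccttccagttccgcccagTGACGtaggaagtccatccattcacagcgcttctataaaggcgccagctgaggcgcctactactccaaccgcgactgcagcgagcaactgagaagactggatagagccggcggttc
Nr4a1 (chr15:101266596-101266895, plus strand): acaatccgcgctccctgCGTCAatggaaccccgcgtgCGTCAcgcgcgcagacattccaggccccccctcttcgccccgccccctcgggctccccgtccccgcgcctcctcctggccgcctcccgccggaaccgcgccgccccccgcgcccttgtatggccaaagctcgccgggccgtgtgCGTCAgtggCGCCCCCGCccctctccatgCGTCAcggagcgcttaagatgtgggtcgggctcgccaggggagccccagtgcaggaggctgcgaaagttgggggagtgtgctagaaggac

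Counts assigned to genes ran from 10831937 to 12639641 in accumbens libraries and from 7466970 to 10363145 in dorsal striatum libraries, so the deeper libraries were those of accumbens. The rarest of the 10 genes, Fos, had 49 to 319 counts per accumbens library and 39 to 104 per dorsal striatum library, and Egr1 had 9198 to 11251 and 9585 to 14862. Markers of striatal projection neurons were abundant in every library. Summed over Drd1, Ppp1r1b, Pde10a, Foxp1, Bcl11b and Rgs9 they reached 4780 to 5436 CPM (counts scaled to a library of 1000000 gene counts, with library sizes adjusted by TMM) in accumbens and 7527 to 8817 CPM in dorsal striatum. The microglial markers were near 0, with summed levels of 4.80 to 17.0 CPM in accumbens and 0.197 to 3.5005 CPM in dorsal striatum over 8 genes, of which C1qa had 0 counts in all libraries.

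Egr1 and Egr3 were the 2 genes of the 10 that differed between regions, and both were lower in accumbens. Egr1, a zinc finger factor widely used as an activity marker (GRCm38 chromosome 18, 34859823 to 34864984, plus strand), had 1009, 818, 727 and 854 CPM in accumbens libraries 1 to 4 and 1728, 1401, 1326 and 1465 CPM in dorsal striatum libraries 1 to 4. The highest accumbens library lay below the lowest dorsal striatum library. Its level in accumbens was 57.6% of that in dorsal striatum (log2 fold change -0.80 ± 0.12 SE, edgeR quasi-likelihood test with Benjamini-Hochberg adjustment over 12467 genes, adjusted p = 8.20e-04). Egr3, which encodes a factor that binds the same DNA letters as Egr1 (chromosome 14, 70077203 to 70082614, plus strand), had 644, 486, 468 and 465 CPM in accumbens and 1018, 731, 924 and 865 CPM in dorsal striatum. Again the regions did not overlap. Its level in accumbens was 58.3% of that in dorsal striatum (log2 fold change -0.78 ± 0.14 SE, adjusted p = 0.00226). Of all tested genes, 3.72% were called in either direction, 2.12% lower and 1.6% higher in accumbens. Ranges of the regions were apart for 9.69% of the tested genes, in 5.18% with accumbens lower. With each library left out in turn, both calls held, at adjusted p up to 0.00541 for Egr1 and 0.0137 for Egr3. In bulk libraries, fewer cells that make a transcript and less transcript per cell cannot be told apart.

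**Figure D1:**
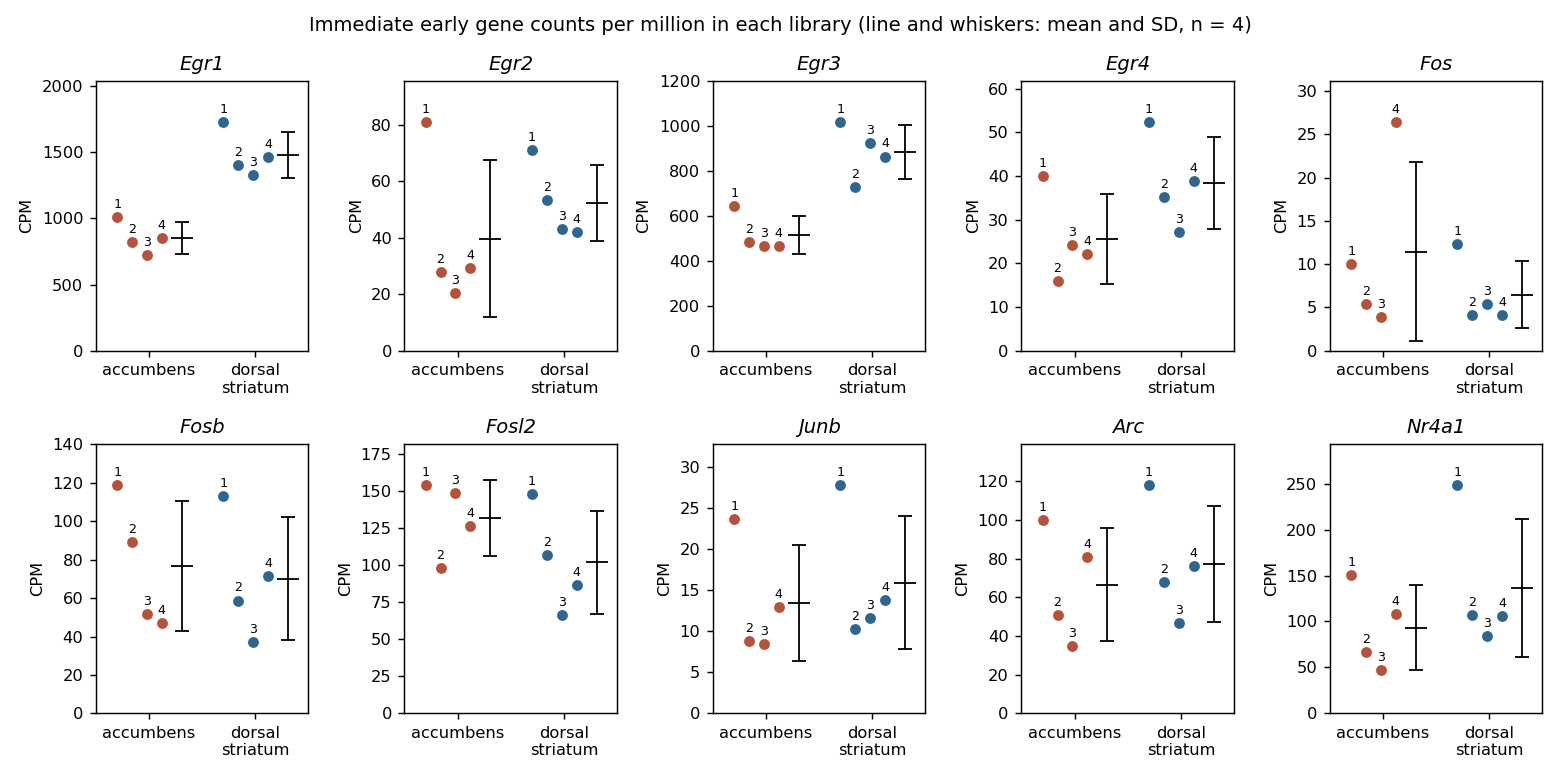
CPM of each immediate early gene (vertical axes, from 0) in accumbens libraries (left, red) and dorsal striatum libraries (right, blue); each point is 1 library with its number, and the line with whiskers is the mean and SD of 4 libraries. The regions do not overlap for Egr1 and Egr3, and library 1 is the highest of its region in all panels except Fos in accumbens, where library 4 stands at 26.4 CPM.

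The remaining EGR genes, at lower levels, were not called. Egr4 (chromosome 6, 85511121 to 85513589, minus strand), a family member found mostly in neurons, had 40.0, 15.95, 24.2 and 22.0 CPM in accumbens and 52.3, 35.1, 27.1 and 38.7 CPM in dorsal striatum. Its regions overlapped through accumbens library 1 alone, and the log2 fold change was -0.59 ± 0.29 SE (edgeR adjusted p = 0.365). Egr2 (chromosome 10, 67535475 to 67542188, plus strand), known in Schwann cells as a regulator of myelination, had 80.8, 27.9, 20.4 and 29.1 CPM in accumbens and 71.0, 53.2, 42.9 and 42.1 CPM in dorsal striatum. Accumbens library 1 was above every dorsal striatum library, and the other 3 accumbens libraries were below all of them. The log2 fold change of Egr2 was -0.40 ± 0.34 SE with all libraries (edgeR adjusted p = 0.667) and -1.01 without accumbens library 1 (adjusted p = 0.0523).

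Nr4a1, an orphan nuclear receptor gene known to respond to dopamine signalling in striatum (chromosome 15, 101254269 to 101274795, plus strand), had 151, 66.7, 47.0 and 109 CPM in accumbens and 248.6, 107, 84.4 and 106 CPM in dorsal striatum. Accumbens libraries 1 and 4 lay within the dorsal striatum range and the other 2 below it. The log2 fold change was -0.55 ± 0.33 SE (edgeR adjusted p = 0.487), and without dorsal striatum library 1 it was -0.09. Arc, which promotes the removal of AMPA receptors from synapses (chromosome 15, 74669083 to 74672570, minus strand), had 100.03, 51.0, 34.8 and 80.9 CPM in accumbens and 118, 67.8, 46.6 and 76.4 CPM in dorsal striatum. The ranges of Arc overlapped widely (log2 fold change -0.21 ± 0.30 SE, adjusted p = 0.821).

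The AP-1 genes showed no called difference and had values of both signs. Fosl2, the FRA2 subunit gene (chromosome 5, 32135801 to 32157842, plus strand), had 154, 98.3, 149 and 126 CPM in accumbens and 148, 106, 66.3 and 86.7 CPM in dorsal striatum. Its log2 fold change was 0.37 ± 0.22 SE (edgeR adjusted p = 0.461). Accumbens libraries 2 and 4 lay within the dorsal striatum range, and library 3 was just above it. Fosb, a subunit gene of the same family (chromosome 7, 19302696 to 19310051, minus strand) had 119, 89.4, 51.6 and 47.1 CPM in accumbens and 113, 58.8, 37.2 and 71.3 CPM in dorsal striatum. These ranges were nearly the same (log2 fold change 0.13 ± 0.31 SE, adjusted p = 0.915). Counts per gene do not separate the full-length Fosb transcript from that of truncated ΔFosB. It is the stable ΔFosB protein that is known to build up in striatum with repeated stimulation.

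Junb, whose protein pairs with FOS proteins (chromosome 8, 84974484 to 84978718, minus strand), had 23.6, 8.79, 8.46 and 12.9 CPM in accumbens and 27.8, 10.3, 11.6 and 13.8 CPM in dorsal striatum. In each region library 1 stood far above the others, and the log2 fold change was -0.24 ± 0.41 SE (edgeR adjusted p = 0.859). Exons of Junb share 173 bases with Prdx2 on the opposite strand, and the strand setting of the counting is not given in the sources used here. Fos, the AP-1 subunit gene most often used as a mark of neuronal activity (chromosome 12, 85473890 to 85477273, plus strand) was the least abundant, with 10.05, 5.37, 3.87 and 26.4 CPM in accumbens and 12.3, 4.14, 5.40 and 4.14 CPM in dorsal striatum. Accumbens library 4 had the highest Fos of all, and without it the log2 fold change was -0.02, against 0.82 ± 0.57 SE with all libraries (edgeR adjusted p = 0.578). That library also had the highest summed level of 10 endothelial and mural markers, 184 CPM, where the other accumbens libraries had 9.30 to 86.7 CPM and the dorsal striatum libraries 6.15 to 90.6 CPM. Dorsal striatum library 1, with the highest Fos of its region, had the lowest of these marker sums. The part of these markers in the Fos values was not tested.

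Per kilobase of exon the 10 genes spanned a wide range of levels. Counts were divided by the merged exon length in GENCODE M21 and scaled to the same total in each library (TPM). Egr1 came first, with 882 to 1249 TPM in accumbens and 1558 to 1976 TPM in dorsal striatum, and Egr3 second, with 578 to 812 and 897 to 1185 TPM. These 2 made up 77.8% of the summed TPM of the 10 genes on average (68.9% to 85.6% across the 8 libraries). Nr4a1 followed with a mean of 148 TPM in accumbens and 203 TPM in dorsal striatum, and Arc with 122 and 132 TPM. Egr4, Egr2, Fosl2 and Fosb had means between 64.7 and 75.6 TPM in accumbens and between 54.9 and 93.1 TPM in dorsal striatum. Junb had 32.5 TPM in accumbens and 35.9 TPM in dorsal striatum, and Fos 27.4 and 14.4 TPM. The ranges of Egr1, Egr3 and Nr4a1 stood apart from each other within each region, while each neighbouring pair from Nr4a1 down to Fos overlapped in both regions.

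Egr1 and Egr3, the most abundant of the 10, also had the smallest relative spread within a region. The highest library exceeded the lowest 1.39-fold for Egr1 and 1.39-fold for Egr3 in accumbens, and 1.30-fold and 1.39-fold in dorsal striatum. For Egr2 this ratio was 3.96 in accumbens and 1.69 in dorsal striatum, for Nr4a1 3.20 and 2.95, for Arc 2.88 and 2.54, and for Fos 6.82 and 2.97. The biological coefficient of variation that edgeR assigned, which is the spread beyond counting error, was 0.145 for Egr1 and 0.153 for Egr3. It was 0.331 for Nr4a1, which is above 99.6% of the 2469 tested genes within 2-fold of its mean CPM. Fosb (0.313) lay above 98.2% of its neighbours in abundance, Arc (0.301) above 97.3%, Egr2 (0.344) above 96.5%, Fosl2 above 88.8% and Fos above 82.8%. Egr1 lay above 58.0% of the genes near it, Egr4 above 66.5%, Junb above 69.3% and Egr3 above 70.9%. Against genes of like abundance, Egr3 was thus not steadier than Egr4 or Junb. All 10 genes lay above the median of tested genes of like abundance.

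**Figure D2:**
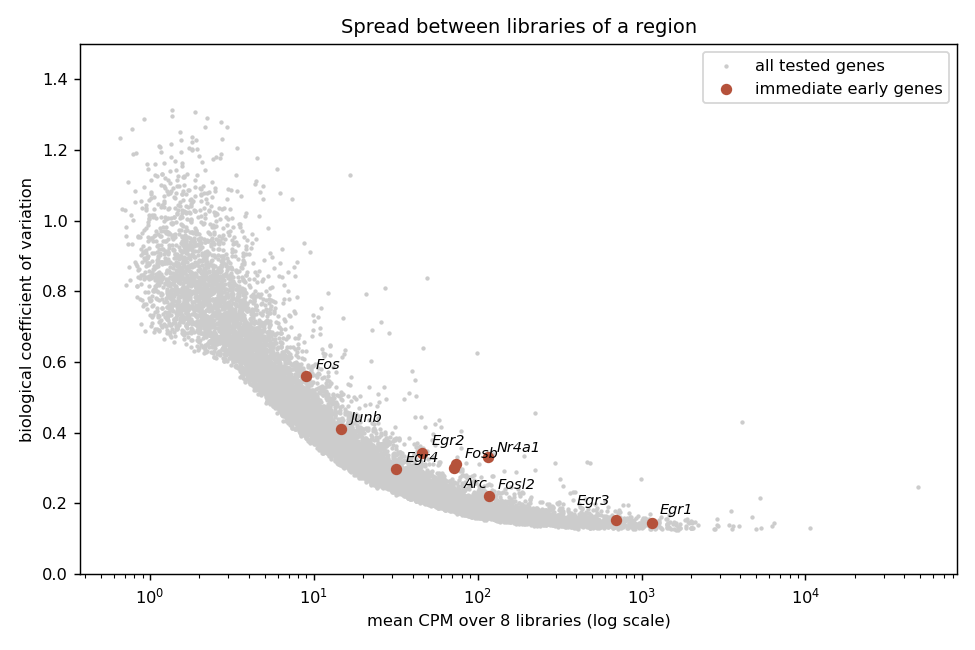
Biological coefficient of variation between libraries of a region (vertical axis) against mean CPM over 8 libraries (horizontal log axis); each grey point is 1 tested gene and each red point 1 immediate early gene. Nr4a1 at 0.331, Fosb at 0.313 and Arc at 0.301 lie in the upper part of the genes of their abundance, and Egr1 at 0.145 and Egr3 at 0.153 lie among them.

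The spread within regions had a shared shape. Accumbens library 1 had the highest level of its region for 9 of the 10 genes (all but Fos), and dorsal striatum library 1 had the highest level of its region for 10 of 10. Both at once held for 9 of 10 genes, against 5.78% of all 12467 tested genes. Library 3 of accumbens was the lowest of its region for 6 of the 10 genes, and library 3 of dorsal striatum for 6. Over the 12467 tested genes these libraries were the lowest of their region for 3022 and 3842. Accumbens library 1 exceeded the mean of the other accumbens libraries 3.13-fold for Egr2, 2.35-fold for Junb, 2.03-fold for Nr4a1 and 1.26-fold for Egr1. Dorsal striatum library 1 exceeded the mean of the other dorsal striatum libraries 2.70-fold for Fos, 2.34-fold for Junb, 2.03-fold for Fosb and 1.24-fold for Egr1. With both of these libraries left out, Egr1 and Egr3 stayed lower in accumbens (log2 fold changes -0.80 and -0.83, edgeR adjusted p = 0.00423 and 0.00599) and no other gene of the 10 was called.

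**Figure D3:**
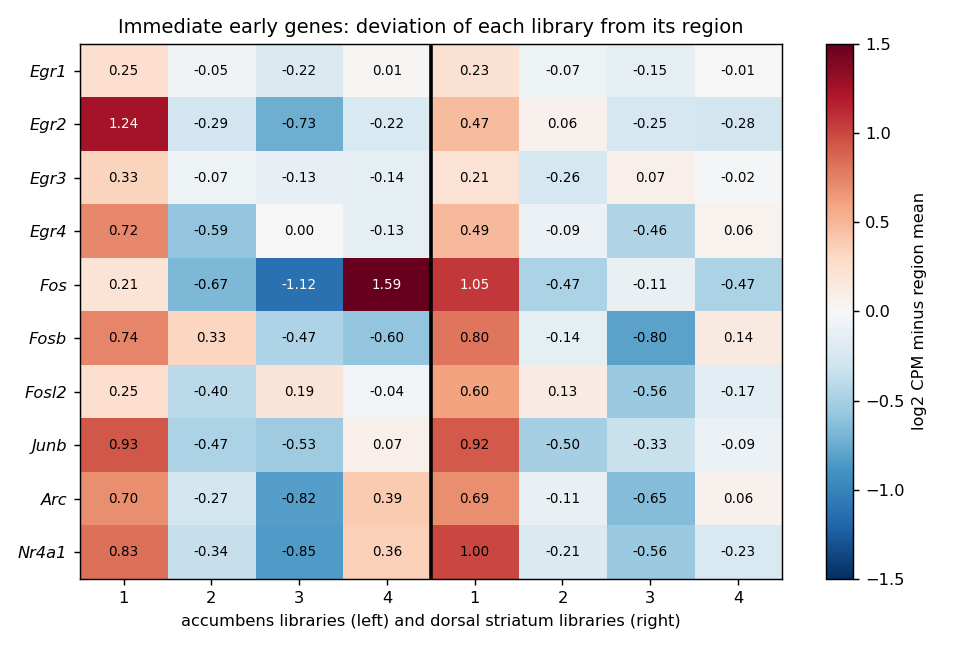
Log2 CPM of each immediate early gene (rows) in each library (columns) minus the mean of its region, with accumbens libraries 1 to 4 left of the black line and dorsal striatum libraries 1 to 4 right of it; red is above and blue below the region mean. Library 1 is positive for all 10 genes in both regions, from 0.21 for Fos to 1.24 for Egr2 in accumbens and from 0.21 for Egr3 to 1.05 for Fos in dorsal striatum.

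Other genes shared this shape in part, both genes induced by activity and markers of indirect-pathway neurons. Library 1 was the highest in both regions for 5 of 17 other tested effectors, for 3 of 6 secreted or delayed genes, for 3 of 6 indirect-pathway neuron markers and for 2 of 15 other transcription factors of the class, and for 0 of 20 upstream kinases and factors and 0 of 6 projection neuron markers. Rgs2, an activity-induced brake on G protein signalling, had 611, 386, 358 and 395 CPM in accumbens libraries 1 to 4 and 683, 338, 378 and 488 CPM in dorsal striatum libraries 1 to 4. Summed markers of other cells also stood high in accumbens library 1. Its summed levels were 908 CPM for indirect-pathway markers, 712 CPM for astrocyte markers and 323 CPM for oligodendrocyte markers, all the highest of the accumbens libraries. Gene by gene, accumbens library 1 was the highest for 5 of 6 tested indirect-pathway markers and 4 of 5 oligodendrocyte markers. For astrocyte markers this held for 1 of 7, and their mean deviation was larger in library 3 (0.24) than in library 1 (0.13). In dorsal striatum library 1 the indirect-pathway sum was the highest of the region by a small margin, at 333 CPM against 328 CPM in library 2. That library was the highest of its region for 3 of these 6 markers. Its astrocyte markers, at 239 CPM, and oligodendrocyte markers, at 162 CPM, lay within the range of the other dorsal libraries. The endothelial and mural markers, at 6.15 CPM in dorsal striatum library 1, were the lowest. The summed level of 6 heat shock and stress genes was 1206 CPM in accumbens library 1 and 1242 CPM in dorsal striatum library 1, in both regions inside the range of the other libraries, and the mean deviation of the 5 tested ones was -0.39 and 0.33 on the log2 scale. The part of these markers in the shared shape was not tested, and the labels do not state how animals were handled before dissection.

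**Figure D4:**
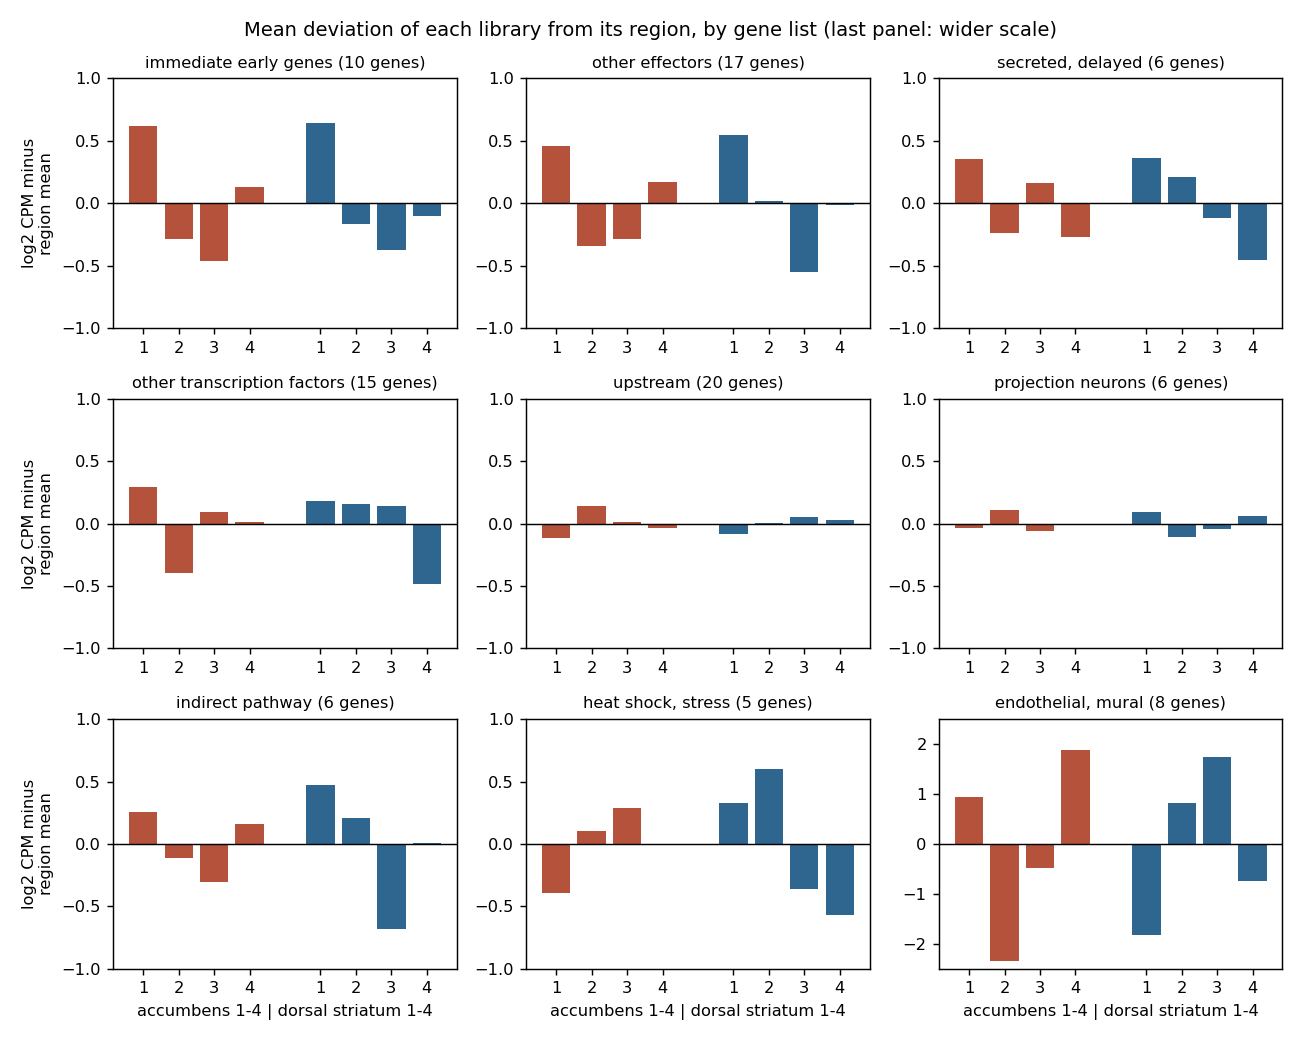
Mean log2 CPM minus region mean (vertical axes; the last panel has a wider scale) for 9 gene lists in accumbens libraries 1 to 4 (left, red) and dorsal striatum libraries 1 to 4 (right, blue). Library 1 stands at 0.62 and 0.65 for the immediate early genes and at 0.46 and 0.55 for other effectors, against -0.04 and 0.09 for projection neuron markers.

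By Pearson's r over the 8 libraries with region means removed, the genes most like the mean of the 10 among 9270 candidates of at least 5 CPM included Tnfaip8l1 (0.98), Bloc1s1 (0.96), Slitrk2, Mbtps2, Eif2s2, Polr2e, Cox6c, Fam49a and Lsm14b (0.92). They are named as a description, with no test. Pearson's r does not measure the size of a deviation. In the libraries numbered 1, Eif2s2, Cox6c, Fam49a and Lsm14b deviated by 0.08 to 0.22 on the log2 scale. The mean of the 10 deviated there by 0.62 in accumbens and 0.65 in dorsal striatum, and Tnfaip8l1 by 1.04 and 1.32. Rgs2 came 19th, at 0.90.

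Among the other genes of the pathway, 60 were tested and 5 differed between regions, 4 lower and 1 higher in accumbens. Over all 12467 tested genes, 3.72% were called, 2.12% lower and 1.6% higher. Of the 17 tested effectors, Homer1 was called. It encodes a scaffold of postsynaptic densities whose short form is activity-induced, and counts per gene do not separate the forms. It had 284, 297, 294 and 274 CPM in accumbens and 493, 405, 514 and 486 CPM in dorsal striatum, with no overlap and a log2 fold change of -0.72 ± 0.12 SE (edgeR adjusted p = 0.00128). The fall in Homer1 was close in size to those of Egr1 and Egr3, and Plk2, a kinase gene of the same list, was not called (336 ± 25.2 CPM in accumbens and 414 ± 42.4 CPM in dorsal striatum, SD, n = 4 each, adjusted p = 0.232). Rgs2 was not called either (log2 fold change -0.11 ± 0.20 SE, adjusted p = 0.876). The effector list's median log2 fold change was -0.18, that of the 10 immediate early genes -0.32 and that of all tested genes 0.02. The median was 0.38 for the 15 other tested transcription factors of the class and 0.07 for the 20 upstream genes. It was -0.25 for the 6 secreted or delayed genes, 0.17 for the 2 EGR corepressor genes and -0.02 for all 60 together.

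Of the 6 tested secreted or delayed genes, Scg2 went the other way. It encodes secretogranin II, a protein of dense-core vesicles. It had 935, 848, 775 and 830.5 CPM in accumbens and 583, 519, 474 and 381.5 CPM in dorsal striatum. All accumbens libraries were above all dorsal striatum libraries (log2 fold change 0.79 ± 0.13 SE, edgeR adjusted p = 0.00143). Vgf and Inhba were not called, at log2 fold changes of -0.15 and -0.53 (adjusted p = 0.814 and 0.2997).

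Of the 20 upstream genes, 3 were lower in accumbens, against 2.12% of all tested genes. Camk4, a calmodulin-dependent kinase that phosphorylates CREB, had 856, 930, 823 and 1126 CPM in accumbens and 1803, 1766, 2193 and 2036 CPM in dorsal striatum. Every accumbens library was well below every dorsal striatum library (log2 fold change -1.06 ± 0.12 SE, edgeR adjusted p = 6.37e-05). Its exons share 72 bases with 2310026I22Rik on the opposite strand. Rps6ka5, the gene of the kinase MSK1, which acts on CREB and on histone H3, averaged 43.8 ± 4.29 CPM in accumbens and 80.6 ± 17.8 CPM in dorsal striatum (SD, n = 4 each). Its log2 fold change was -0.88 ± 0.20 SE (edgeR adjusted p = 0.0142), and its exons share 179 bases with Gm49703. Its call was lost without accumbens library 1 (adjusted p = 0.0585), without dorsal striatum library 3 (0.0626) and without both libraries numbered 1 (0.0773). Mef2c, a transcription factor regulated by calcium signals, averaged 275 ± 28.4 CPM in accumbens and 434.5 ± 65.1 CPM in dorsal striatum (SD, n = 4 each), and its log2 fold change was -0.66 ± 0.14 SE (edgeR adjusted p = 0.00762). The gene of the highest CPM in the list, the SRF coactivator gene Mkl2, and the ERK-pathway activator gene Rasgrf1 were not called (log2 fold changes -0.05 and 0.22, adjusted p = 0.882 and 0.445).

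Of 15 other tested transcription factors of the class, edgeR called 0, with 1 at an unadjusted p under 0.05, and DESeq2 and limma-voom also called 0. Per1, a clock gene induced by CREB, had the highest CPM of the list, at 151 ± 18.2 CPM in accumbens and 182.5 ± 22.9 CPM in dorsal striatum (SD, n = 4 each, edgeR adjusted p = 0.405). Bhlhe40 and Ier5 showed log2 fold changes of -0.06 and -0.33 (adjusted p = 0.947 and 0.535). Fosl1, Maff, Klf2 and Ier2 were too low to be tested. The EGR corepressor genes Nab1 and Nab2, whose proteins bind EGR1 and damp its activity, were not called by edgeR, DESeq2 or limma-voom, and 0 of the 2 had an unadjusted p under 0.05 in any of these. Nab2 averaged 103 ± 28.7 CPM in accumbens and 111.5 ± 26.8 CPM in dorsal striatum, and Nab1 averaged 16.8 ± 5.75 and 12.3 ± 1.83 CPM (SD, n = 4 each).

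**Figure D5:**
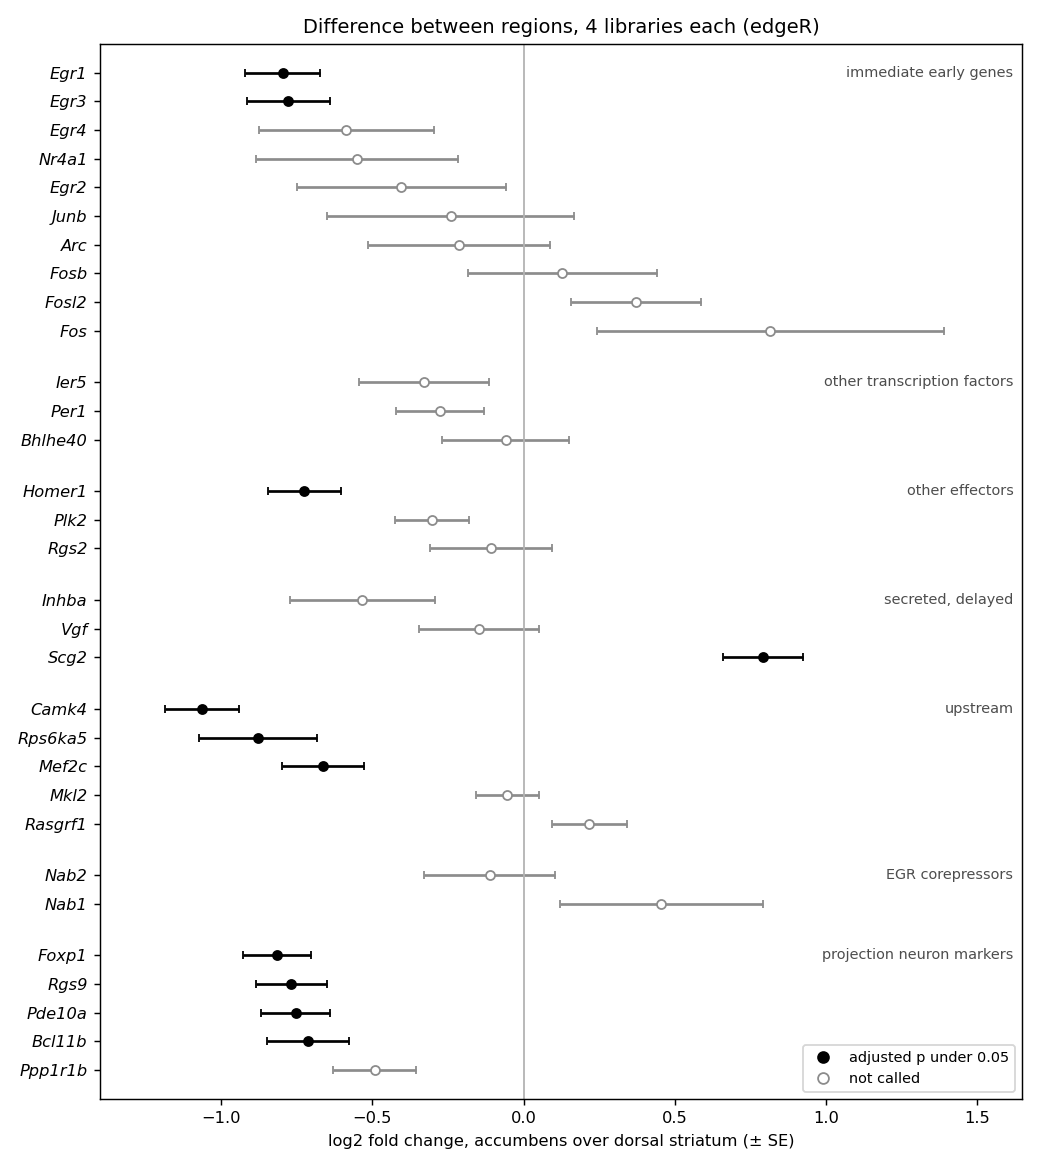
Accumbens over dorsal striatum as log2 fold change (horizontal axis, points with SE whiskers, 4 libraries per region) for the immediate early genes, for named genes of the related lists and for projection neuron markers; filled points passed an adjusted p under 0.05. Egr1 (-0.80), Egr3 (-0.78) and Homer1 (-0.72) lie in the range of the projection neuron markers Foxp1 (-0.82), Rgs9 (-0.77), Pde10a (-0.75) and Bcl11b (-0.71).

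The falls of Egr1 and Egr3 came with shifts in cell markers. Calls lower in accumbens made up 2.12% of all tested genes, and calls higher 1.6%. Of 6 projection neuron markers, 4 were lower in accumbens, at log2 fold changes from -0.82 (Foxp1, edgeR adjusted p = 2.97e-04) to -0.71 (Bcl11b, 0.00414), which is the size of the change of Egr1 and Egr3. Drd1 and Ppp1r1b were not called, at -0.47 and -0.49 (adjusted p = 0.0750 and 0.0563). That depended on the setting, as all 6 markers had an unadjusted edgeR p under 0.05. With DESeq2, with limma-voom and without the filter on low counts all 6 were called, and with the glial marker covariate 3 were. Indirect-pathway markers were positive for 6 of 6 genes and called higher for 3 (Penk, Drd2 and Adora2a), with summed levels of 628 to 908 CPM in accumbens and 223 to 333 CPM in dorsal striatum. The Drd2 call was lost without accumbens library 1 (edgeR adjusted p = 0.0759) and without dorsal striatum library 3 (0.0509) or 4 (0.0569). The Adora2a call was lost without accumbens library 1 (0.101) or 4 (0.0765) and without each dorsal striatum library (0.0522 to 0.0806). Summed astrocyte markers ran from 269.7 to 712 CPM in accumbens and from 204 to 379.6 CPM in dorsal striatum, and oligodendrocyte markers from 127 to 323 and from 121.5 to 191 CPM. Interneuron markers ran from 50.3 to 155 CPM in accumbens and from 24.3 to 110 CPM in dorsal striatum. A glial score (the mean over 13 tested markers of the 3 glial classes) itself ran with region, at 0.19 to 0.73 in accumbens libraries and -0.98 to 0.43 in dorsal striatum libraries, of which 3 were below 0. With that score in the model, Egr1 was still called (log2 fold change -0.85, edgeR adjusted p = 0.0274) and Egr3 was not (-0.75, adjusted p = 0.116). In that fit 105 genes were called in all, and Camk4 was among them (log2 fold change -0.95, adjusted p = 0.00925). Not called there were Homer1 (-0.57, adjusted p = 0.140), Scg2 (0.59, 0.210), Mef2c (-0.54, 0.333) and Rps6ka5 (-0.58, 0.600), with log2 fold changes of the same sign as without the score. The part of neuronal makeup in the 2 calls was not tested.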

How the data were processed

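Ribosome-bound RNA from 4 accumbens and 4 dorsal striatum immunopurifications was sequenced, and libraries were placed in a region by title. The deposited values are raw counts per gene symbol. The submitters' processing notes name STAR 2.0.0e, HTSeq and the mm10 genome build; annotation, strand setting and filters are not given in the sources used here. Totals without a gene were left out. They made up 35.5% to 40.6% of counted reads in accumbens libraries and 27.1% to 33.8% in dorsal striatum libraries, with no overlap. Rn45s made up 5.66% to 6.71% of gene counts in accumbens and 1.91% to 5.84% in dorsal striatum. The part of these differences in the region calls was not tested. A count of 3 corresponds to 0.237 to 0.402 CPM.

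The region difference was fitted by the quasi-likelihood method of edgeR 4.0.16 under R 4.3.3 (TMM scaling, filterByExpr with a minimum count of 10, region as the only term, Benjamini-Hochberg adjustment over 12467 genes, called under 0.05). Fold changes put accumbens over dorsal striatum, and each standard error was derived from the log2 value and the F statistic. Log2 CPM used a prior count of 2. The fit was also run on counts simulated from its own fitted dispersions, independent between genes and libraries. That run does not cover the shape shared by the 10 genes across libraries. Positions and exon lengths are from GENCODE M21 (GRCm38, the build of mm10), 1-based; promoter windows are from RefSeq. Lengths were matched for 23840 symbols.

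The members and lists were chosen with earlier results of these data known. Named genes are all members and, of each activity list, called genes and the 3 most abundant; cell type lists are given mainly as sums. Alternatives were RLE normalization, no filter, DESeq2 1.42.0, limma-voom (limma 3.58.1) with sample weights, a replicate block, a glial marker covariate and each library left out. Leaving out both libraries numbered 1 was added after seeing the data. Within a region, every 2 libraries differed by more than sampling noise in a chi-square test. A gene that the likeness ranking took is not reported here.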

Additional observations from a re-analysis of the deposited data

Results flagged for a closer look

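Among 68 groups of 4 libraries (34 named genes in 2 regions), 7 had a library far from the other 3. Chance gives about 1 in 20 for independent, normally distributed values. Several of these genes varied together across libraries, so that rate does not apply directly here. In accumbens library 1, Egr2 stood at 80.8 CPM against 20.4 to 29.1 CPM in the other accumbens libraries. Egr3 in the same library stood at 644 CPM against 465 to 486 CPM. Rgs2 there stood at 611 CPM against 358 to 395 CPM, and Penk, an indirect-pathway marker, at 779 CPM against 543 to 552 CPM. In dorsal striatum library 1, Fos stood at 12.3 CPM against 4.14 to 5.40 CPM in the other dorsal striatum libraries, and Nr4a1 at 248.6 CPM against 84.4 to 107 CPM. Inhba, which encodes a subunit of the secreted protein activin, was low in dorsal striatum library 4, at 45.8 CPM against 71.8 to 74.7 CPM.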

How the results depend on the processing

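Egr1 and Egr3 were the called members, 2 in number, with RLE normalization, without a filter on low counts, with DESeq2, limma-voom and the replicate block, without both libraries numbered 1 and with each library left out (2 to 2). With the glial marker covariate 1 member was called. Over all genes, 464 were called, against 793 with DESeq2, 105 with the covariate and 236 without both libraries numbered 1. Of the related activity genes 5 were called, 4 to 5 with each library left out, 8 with DESeq2 and 1 with the covariate; the cause was not tested. Ordering the 10 genes by CPM without length left 4 in the same place, and leaving out Rn45s left all 10.

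The labels do not say that equal numbers mark the same animals, so the numbers were not used as pairs in the main fit. Over all genes, deviations of same-numbered libraries had correlations of -0.08 to 0.01. Libraries did not correlate best with their own number. The mean of the 10 genes deviated with the same sign in both regions for numbers 1 to 3 and with opposite signs for number 4. It deviated by 0.62 in accumbens and 0.65 in dorsal striatum for number 1 and by -0.28 and -0.17 for number 2 (log2). The values were -0.47 and -0.38 for number 3, and 0.13 and -0.10 for number 4. Whether equal numbers share animals was not tested. With the replicate block 2 members and 7 related genes were called, and 4 of the 10 members, against all 10, lay above the median spread of genes of like abundance. The percentile of that spread was then 49.8 for Nr4a1, 30.3 for Arc and 1.30 for Egr1, against 99.6, 97.3 and 58.0 without the block.

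Uncalled fold changes changed sign for 8 genes. Over libraries left out, log2 fold changes ran from -0.015 to 1.32 for Fos, -0.16 to 0.46 for Fosb, -0.66 to 0.17 for Junb, -0.47 to 0.065 for Arc, -0.27 to 0.077 for Bhlhe40, -0.31 to 0.12 for Rgs2, -0.089 to 0.0075 for Mkl2 and -0.24 to 0.072 for Nab2. Rgs2 stood at 0.010 with limma-voom, and Bhlhe40 and Nab2 at 0.051 and 0.026 without both libraries numbered 1. Fos had 39 to 319 counts per library and a biological coefficient of variation of 0.560, and its sign turned without accumbens library 4.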
